A study of Mus musculus with 24 samples.

Results

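The surfactant program of the alveolar type II cell was followed through 10 genes: Sftpa1, Sftpb, Sftpc and Sftpd, which encode the 4 surfactant proteins, and Abca3, Lamp3, Napsa, Lpcat1, Slc34a2 and Etv5. They were taken by gene symbol from the 23420 genes of each deposited table. All 10 were listed in all 4 tables and all 10 passed the filter on low values, so every count given for them is out of 10. RNA was sequenced from 24 samples of the left lung lobe of mouse pups, in 8 groups of 3. All mutants were Sox9 Cre/+ and carried either Vangl2 f/f or Ror2 f/f, and they were taken on postnatal day 2 (P2) or 5 (P5). Cre recombinase made from the Sox9 locus deletes the floxed gene in the SOX9-positive distal lung epithelium, so the other cells of the lobe keep it. Each mutant group was set against its own 3 controls of the same age, whose genotype is given as WT and whose titles read Control(Vangl1/2) or Control(Ror2). Vangl2 is a core membrane protein of planar cell polarity (PCP), the pathway that orients cells within a tissue plane, and Ror2 is a Wnt co-receptor that can act upstream of it. Below, "Vangl2 P2" stands for the comparison of mutant with control lungs in the Vangl2 table at P2, and likewise for the other 3.

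Alveolar type II cells make, store and recycle pulmonary surfactant, the film of lipid and protein that lowers surface tension at the air-liquid interface and keeps the newborn lung open. The hydrophobic proteins SP-B and SP-C are packed with phospholipid into lamellar bodies and spread the film once it is secreted. The collectins SP-A and SP-D are larger, soluble proteins that bind microbes, and SP-D also regulates the size of the surfactant pool. The same cells act as progenitors of the flat alveolar type I cells that form most of the gas-exchange surface.

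Several facts of the whole series bear on what follows. The lungs carried 16178031 to 21546673 reads on genes in 23 of the 24 libraries and 13823693 in control replicate 1 of Ror2 P5. In that library, all genes on chromosomes 6 to 9 and X that were above 20 normalized counts in the other 5 lungs of its table were listed at 0, as were 71.5% of those on chromosome 5. Its values on chromosomes 5 to 9 and X were set to missing, and with them Sftpb on chromosome 6, Napsa on chromosome 7 and Slc34a2 on chromosome 5 were compared over 2 controls and 3 mutants at Ror2 P5. The deleted genes check the labels only in part, because each was measured in the whole lobe. Vangl2 was at 249, 302 and 281 normalized counts in Vangl2 P2 controls and 241, 224 and 173 in mutants, and at 369, 314 and 292 against 170, 148 and 166 at P5, all mutants below all controls at either age. Ror2 overlapped between the groups of its own line, at 451, 581 and 520 against 479, 349 and 366 at P2 and at 526, 368 and 597 against 362, 440 and 521 at P5. The genotype entry of the Ror2 mutants at P2 names Vangl2 f/f, and that of the Vangl2 mutants at P5 names Ror2 f/f. The titles were followed. The labels number the lungs of a group but do not say that each came from a different pup or litter, so the p-values measure the spread between these samples.

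All 10 are protein-coding genes, and their positions are given on GRCm38 (mm10). Sftpa1 (chr14:41131782-41136452, plus strand) and Sftpd (chr14:41172214-41185149, minus strand) both lie in the collectin cluster, with 35761 bases between them. Sftpc (chr14:70520949-70524081, minus strand) lies on the same chromosome, well away from them. Sftpb is at chr6:72304610-72314371, plus strand. Abca3 (chr17:24351950-24410201, plus strand) encodes the transporter that loads lipid into lamellar bodies, Lamp3 (chr16:19653378-19706375, minus strand) a lamellar body membrane glycoprotein, and Napsa (chr7:44572380-44586862, plus strand) an aspartic protease that takes part in SP-B processing. Lpcat1 (chr13:73467197-73516422, plus strand) encodes an acyltransferase that makes the dipalmitoyl phosphatidylcholine of surfactant, Slc34a2 (chr5:53038081-53071664, plus strand) the apical sodium-phosphate cotransporter of the type II cell, and Etv5 (chr16:22381309-22439719, minus strand) an ETS transcription factor downstream of FGF signalling.

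Promoter sequence was found in RefSeq (GRCm38.p6) for 7 of the 10 genes, each entry running from 250 bases before to 50 bases after a transcription start. The 2 that follow are shown because Sftpa1 and Slc34a2 are the genes with such an entry that rose at Vangl2 P2. They lie at chr14:41131538-41131837 and chr5:53049103-53049402, both on the plus strand, and are written 5′ to 3′. Capitals mark the matches to 6 short motifs searched on both strands.
Sftpa1: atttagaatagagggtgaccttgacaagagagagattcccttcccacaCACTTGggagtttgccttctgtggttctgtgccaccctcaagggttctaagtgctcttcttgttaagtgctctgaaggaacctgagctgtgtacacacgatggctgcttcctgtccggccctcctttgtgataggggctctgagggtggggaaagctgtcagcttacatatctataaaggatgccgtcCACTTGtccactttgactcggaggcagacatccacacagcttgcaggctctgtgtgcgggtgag
Slc34a2: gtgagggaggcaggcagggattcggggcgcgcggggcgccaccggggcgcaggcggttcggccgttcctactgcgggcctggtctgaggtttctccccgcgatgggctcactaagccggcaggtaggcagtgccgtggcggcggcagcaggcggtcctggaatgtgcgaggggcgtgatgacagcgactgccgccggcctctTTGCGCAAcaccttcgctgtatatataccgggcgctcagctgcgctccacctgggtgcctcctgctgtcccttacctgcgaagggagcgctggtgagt
In Sftpa1 the capitals are the NKX2-1 homeodomain core CAAGTG, found on the opposite strand (CACTTG) from -202 to -197 and from -14 to -9 relative to the start. That core occurred in 13.6% of all 32851 promoters and in 1 of the 8 promoters of these genes, since Etv5 has 2 entries. In Slc34a2 the capitals are a C/EBP match (TTNNGNAA) from -48 to -41, which reads the same on either strand. The C/EBP letters occurred in 40.7% of all promoters and in 2 of the 8, the other being Sftpb. The forkhead core TGTTTA matched Lamp3 and 1 Etv5 entry (13.4% of all promoters), the ETS core CCGGAA matched Abca3 (14.9%), the STAT letters TTCNNNGAA matched Lamp3 (8.3%) and the AP-1 letters TGANTCA matched Sftpb (7.81%). None of the 6 motifs overlapped another in these windows, and no motif was shared by Sftpa1 and Slc34a2.

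The levels of the genes were set in order within the controls of each table, as normalized counts per kilobase of exon so that genes of different length could be compared. In Vangl2 P2 controls Sftpc led at 232423 per kilobase, followed by Sftpb at 25642, Slc34a2 at 6808 and Sftpa1 at 3405. Lamp3 at 2338, Sftpd at 2213 and Napsa at 2128 lay closer together than the spread of Sftpd between lungs, which was 18.8% of its mean (CV), and did not differ beyond it. Lpcat1 at 788, Etv5 at 682 and Abca3 at 677 closed the order, and the last pair also differed by less than their spread. Sftpc and Sftpb headed the order in the controls of all 4 tables, with Sftpc at 128215 to 232423 and Sftpb at 12739 to 25642 per kilobase. The tables were normalized separately, so levels in different tables stand side by side without a test. Counts of the 10 genes together made up 1.77% to 1.94% of all counts in Vangl2 P2 controls, and Sftpc alone 1.11% to 1.30%. Every one of the 10 markers was far from 0 in every lung with a value.

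**Figure D1:**
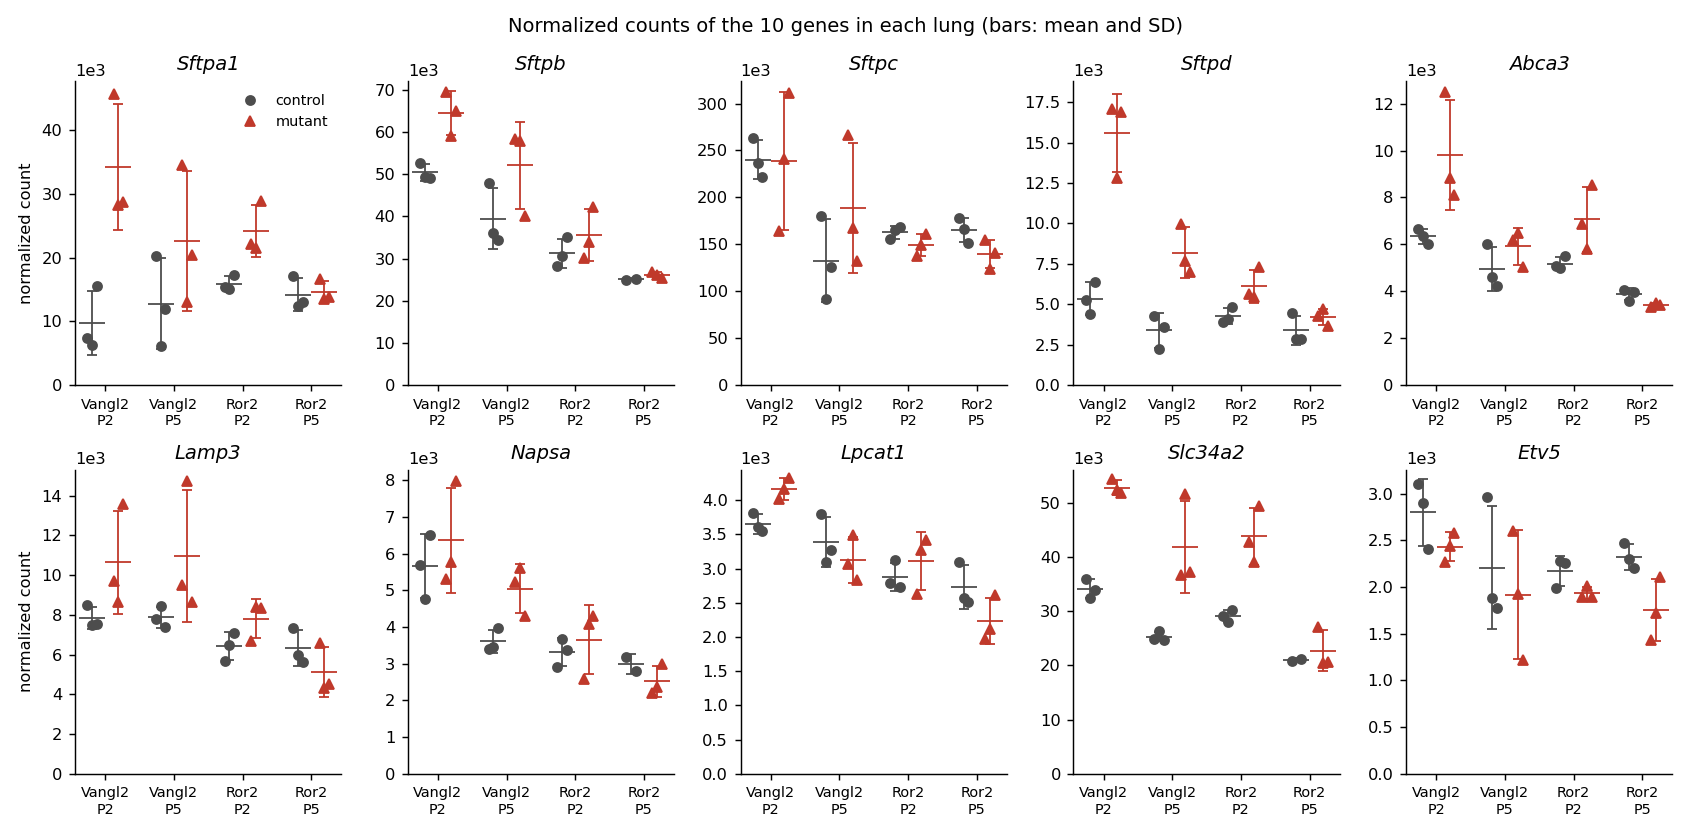
Normalized counts of each gene (vertical axes, linear, from 0) in every lung of the 4 comparisons (horizontal axis), with controls as grey circles, mutants as red triangles and bars for the mean and SD. The 3 Vangl2 mutants at P2 lie above their controls for Sftpa1, Sftpb, Sftpd, Abca3, Lamp3, Lpcat1 and Slc34a2, and Sftpc overlaps in all 4 comparisons.

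At Vangl2 P2 the collectins and the phosphate cotransporter were higher in mutant lungs, while the mean of Sftpc was nearly the same in mutants and controls. A gene was called when its adjusted p in limma was below 0.05, and fold changes are on the log2(normalized count + 1) scale. By that rule 3 of the 10 genes rose, Sftpa1, Sftpd and Slc34a2, and none fell, against 3.59% of all 17448 genes called in either direction and 1.5% called higher. The mutants all lay above the controls for 7 of the 10 genes, against 14.6% of all genes. The median log2 fold change of the 10 was 0.38, beside 0.001 over all genes tested. In whole-lobe RNA, a change in the number of type II cells, a change in the RNA each of them holds and RNA from other cells cannot be told apart.

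Sftpa1 stood at 7339, 6341 and 15534 normalized counts in the Vangl2 P2 controls and at 45698, 28283 and 28709.8 in the mutants. Control replicate 3 was the highest of the controls and mutant replicate 1 the highest of the mutants, and the groups did not overlap. The fold change was 3.72 (log2 1.89, SE 0.34, adjusted p = 0.0329). Sftpd, the other collectin, was at 5236, 4405 and 6408 in controls and at 17099, 12809 and 16907 in mutants. Every mutant held at least 12809 counts and no control more than 6408, a 2.93-fold rise (log2 1.55, SE 0.17, adjusted p = 0.0248). Slc34a2 ran from 32483 to 35954 in controls and from 51686 to 54300 in mutants. Its spread in controls was the smallest of the 3, with a CV of 5.11%, and it rose 1.55-fold (log2 0.63, SE 0.12, adjusted p = 0.0394). The exact two-sided permutation test gave p = 0.1 for each of the 3 genes, the smallest value that 3 lungs against 3 allow.

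Neither of the hydrophobic surfactant protein genes was called in limma at Vangl2 P2. Sftpc was at 263018, 236506 and 221452 in controls and at 163615, 241151 and 311502 in mutants. The mutants thus held both the lowest and the highest value of the 6, and the log2 fold change was -0.05 (SE 0.28, adjusted p = 0.927). Sftpb was at 52772, 49392 and 49224 in controls against 69656, 59112 and 65051 in mutants, without overlap. Its log2 fold change of 0.35 (SE 0.14, unadjusted p = 0.036, adjusted p = 0.191) was above 0. SP-C is the most specific product of the type II cell, and its transcript varied more among mutants (CV 31.0%) than among controls (CV 8.76%).

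Among the lamellar body genes, Abca3 was at 6654, 6374 and 6010 normalized counts in Vangl2 P2 controls and at 12504, 8814 and 8114 in mutants. All mutants were above all controls, with replicate 1 well above the other two, and the log2 fold change of 0.60 (SE 0.16, adjusted p = 0.0853) missed the threshold. Lamp3 was likewise without overlap, from 7501 to 8499 in controls and from 8622 to 13581 in mutants (log2 fold change 0.41, adjusted p = 0.202). Lpcat1, the lipid-remodelling enzyme, ran from 3544 to 3809.6 in controls and from 4011 to 4323 in mutants (log2 fold change 0.19, adjusted p = 0.233). Napsa overlapped between groups (log2 fold change 0.16, adjusted p = 0.634). Etv5 also overlapped, from 2404 to 3099.7 in controls and from 2269.8 to 2581 in mutants (log2 fold change -0.20, adjusted p = 0.357).

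Sex differed between the lungs of this comparison, as read from Xist and the Y-linked genes: control replicate 1 and mutant replicates 2 and 3 were female and the other 3 male. With the summed Y-linked level as a covariate in limma, Sftpa1 (adjusted p = 0.0354) and Sftpd (adjusted p = 0.0307) were still called, among 794 of 17448 genes. Slc34a2 was not (adjusted p = 0.0612) and Abca3 was (adjusted p = 0.0465). Of the 19 alternatives run, Sftpd stayed called as higher in 16, Sftpa1 in 13 and Slc34a2 in 8. The call of Slc34a2 was thus lost in most, among them a pseudocount of 5 (adjusted p = 0.0557), no filter (adjusted p = 0.0501) and quantile normalization (adjusted p = 0.058). The calls also changed with the lungs included, as did those over all genes. Without control replicate 2 or control replicate 3 none of the 10 genes was called in limma, although the 3 fold changes kept their direction. Over all genes, 1 of 17308 and 1 of 17281 were called there. Without mutant replicate 3 Sftpa1, Sftpd, Abca3 and Slc34a2 were all called, among 2333 of 17146 genes. Sftpa1 was also not called without control replicate 1, mutant replicate 1 or mutant replicate 2, where 122, 536 and 33 of all genes were called. On recovered reads edgeR called the same 3 genes, among 3.67% of all genes, and DESeq2 called Sftpb and Abca3 besides, among 11% of all genes. A block for the replicate number, which called 4.56% of all genes, left Sftpa1 and Sftpd called and put Slc34a2 at an adjusted p of 0.0506.

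At Vangl2 P5 the fold changes of 8 of the 10 genes were again above 0, with a median log2 fold change of 0.46 beside 0.003 over all genes. None of the 10 was called in limma, where 0.563% of all 17410 genes were called. At an unadjusted p below 0.05, 3 were higher and none lower, against 10.4% of all genes higher. The count test of edgeR called none of the 10, among 0.396% of all genes, and that of DESeq2 called Sftpd and Slc34a2, among 6.89% of all genes. The lungs of this table deviated from their group means in numbered pairs. No label pairs them, so a block for that number rests on the same values that it tests. With this block limma called Sftpd (adjusted p = 0.0123) and Sftpa1 (adjusted p = 0.0219), among 8.95% of all genes.

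Sftpd was at 4288, 2222 and 3622 normalized counts in Vangl2 P5 controls and at 9949, 7671 and 6981 in mutants. The groups did not overlap, and the fold change was 2.49 (log2 1.32, SE 0.26, adjusted p = 0.0713 without the block). Sftpa1 was at 20344, 6073 and 11999 in controls and at 34560, 12972 and 20455 in mutants. Each mutant was above the control of the same number although the groups overlapped, and the log2 fold change was 0.88 (SE 0.48, adjusted p = 0.372 without the block). Slc34a2 was at 24853, 26345 and 24715 in controls and at 36679, 51579 and 37139.7 in mutants. All mutants were above all controls, with a log2 fold change of 0.71 (SE 0.24, adjusted p = 0.176 without the block and 0.0609 with it).

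Napsa and Lamp3 were the other genes without overlap at Vangl2 P5, and 4 of the 10 genes in all had every mutant above every control, against 13.2% of all genes. Napsa was at 3407, 3461 and 3975 in controls and at 5226, 5623 and 4305 in mutants (log2 fold change 0.48, SE 0.15, adjusted p = 0.159). Lamp3 ran from 7402 to 8449 in controls and from 8647 to 14757 in mutants (log2 fold change 0.44, adjusted p = 0.329). Sftpc ranged from 91779 to 179672 in controls and from 132174 to 266057 in mutants, an overlap, with a log2 fold change of 0.50 (SE 0.48, adjusted p = 0.628). Sftpb (0.39) and Abca3 (0.27) were above 0 and Lpcat1 (-0.11) and Etv5 (-0.23) below it on the log2 fold change scale, all with overlapping groups and none called. Only mutant replicate 1 was male in this table, and with the Y-linked covariate none of the 10 genes was called, where 4 of 17410 genes were.

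At Ror2 P2 the same 3 genes that were called at Vangl2 P2 had the largest log2 fold changes, from 0.51 to 0.59. No gene of the 17541 tested was called by limma or by edgeR at Ror2 P2, although 3380 genes had an unadjusted p below 0.05 (19.3%). DESeq2 called 666 genes (3.8%), Sftpa1, Sftpd and Slc34a2 among them. A block for the replicate number called 0.0057% of all genes in limma and none of the 10. At the unadjusted threshold 4 of the 10 were higher and none lower in limma, against 9.55% of all genes higher. The median log2 fold change of the 10 was 0.23, beside -0.006 over all genes.

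Sftpa1 was at 15429, 15097 and 17246 normalized counts in Ror2 P2 controls and at 22187, 21512 and 28959.6 in mutants (log2 fold change 0.59, SE 0.14, adjusted p = 0.203). Sftpd was at 3914, 4098 and 4832 in controls and at 5611, 5464 and 7307 in mutants (log2 fold change 0.51, SE 0.14, adjusted p = 0.203). Slc34a2 was at 29022, 28041 and 30147 in controls and at 42779.6, 39035 and 49456 in mutants (log2 fold change 0.58, SE 0.12, adjusted p = 0.203). In each of the 3 the lowest mutant was above the highest control and mutant replicate 3 was the highest of the 6 lungs. Abca3 showed the same order, from 4997 to 5482 in controls and from 5788 to 8544 in mutants (log2 fold change 0.43, SE 0.14, adjusted p = 0.208). These 4 were the genes without overlap, against 13.4% of all genes with every mutant above every control.

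The other 6 genes overlapped at Ror2 P2. Sftpc was at 155105, 164935 and 168128 in controls and at 137317, 149505 and 161047 in mutants, with a log2 fold change of -0.13 (SE 0.17, adjusted p = 0.705). Lamp3 (0.28), Sftpb (0.17), Napsa (0.11) and Lpcat1 (0.11) lay above 0 and Etv5 (-0.17) below it on the log2 fold change scale. Control replicate 2 and mutant replicate 2 were the female lungs of this table. Without mutant replicate 2 limma called Abca3 and Slc34a2, among 859 of 17409 genes.

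At Ror2 P5 the direction was mixed: 4 of the 10 fold changes were above 0 and 6 below, with a median log2 fold change of -0.21 beside 0.004 over all genes. None of the 10 was called by limma (0.18% of all 17177 genes called), edgeR (also 0.18%), DESeq2 (4.64%) or limma with a block for the replicate number (0.00582%). At an unadjusted p below 0.05 in limma 3 were lower and none higher, against 8.41% of all genes lower. Etv5, the transcription factor, was at 2476, 2297 and 2202 normalized counts in controls and at 1436, 1722 and 2104 in mutants. All mutants were below all controls, and the log2 fold change was -0.42 (SE 0.13, adjusted p = 0.175). Limma called this gene when mutant replicate 3, the highest of the mutants, was left out, among 897 of 17030 genes. Abca3, which was higher in every Ror2 mutant at P2, was lower in every Ror2 mutant at P5, at 4043, 3569 and 3986 in controls against 3320.5, 3517 and 3398 in mutants. The difference in means was small beside the threshold (log2 fold change -0.18, SE 0.07, adjusted p = 0.242). These 2 genes had every mutant below every control, against 14.4% of all genes.

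Lpcat1 (-0.29), Lamp3 (-0.32), Napsa (-0.26) and Sftpc (-0.24) also lay below 0 at Ror2 P5 on the log2 fold change scale, with overlapping groups. Sftpd was at 4429.6, 2845 and 2879 in controls and at 4267, 4683 and 3662 in mutants. Its groups overlapped through control replicate 1, the library without reads on several chromosomes, and its log2 fold change was 0.34 (SE 0.18, adjusted p = 0.341). Sftpa1 was also highest in that library, at 17173 against 12373 and 12971 in the other controls and 16605, 13565 and 13795 in mutants (log2 fold change 0.06). Slc34a2 was at 20839 and 21209 in the 2 controls used and at 26995, 20479 and 20573 in mutants (log2 fold change 0.10), and the control set to missing held 22174. Sftpb had its 2 controls at 24888 and 25253 and its mutants from 25379.8 to 26746 (log2 fold change 0.05). It was the 1 gene of the 10 with every mutant above every control, against 15.6% of all genes. In this table control replicate 2 was female, control replicate 3 and every mutant were male, and control replicate 1 could not be read for sex. Sex was thus unbalanced between the groups, and no covariate for it was fitted.

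**Figure D2:**
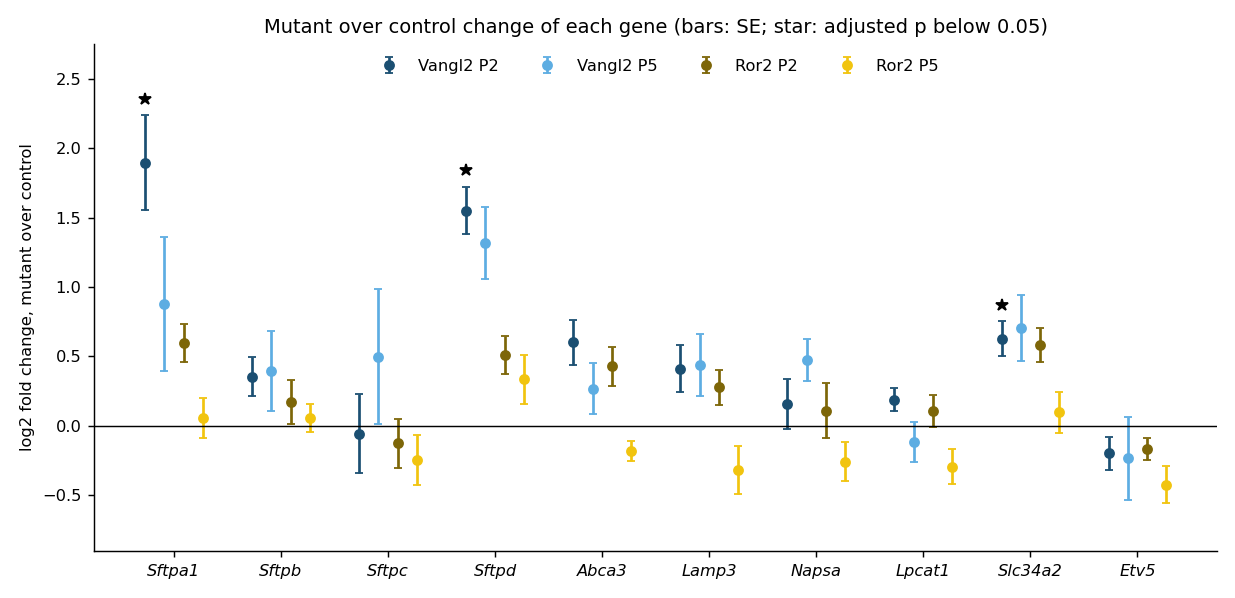
Log2 fold change of mutant over control lungs (vertical axis) for each of the 10 genes (horizontal axis) in the 4 comparisons, with bars for the SE and a star where the adjusted p in limma was below 0.05. The 3 stars stand over Sftpa1, Sftpd and Slc34a2 at Vangl2 P2, and Etv5 lies below 0 in all 4 comparisons with none of the 4 called.

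The differences between the changes were tested in fits over the 12 lungs of 2 tables, and none of the 10 genes was called in any of the 4. From P2 to P5 in the Vangl2 line, where 0 of 17068 genes were called in limma and 8.45% had an unadjusted p below 0.05, none of the 10 reached the unadjusted threshold. The collectin Sftpa1 had the widest difference there, with a log2 change that was lower at P5 by 1.02 (difference -1.02, SE 0.66, unadjusted p = 0.15, adjusted p = 0.662). In the Ror2 line 0 of 16990 genes were called in limma and 9.49% had an unadjusted p below 0.05, and 4 of the 10 were among the latter, all with a lower change at P5. Those were Abca3 (difference -0.61, SE 0.16, adjusted p = 0.452), Lamp3 (-0.59, adjusted p = 0.482), Sftpa1 (-0.54, adjusted p = 0.482) and Slc34a2 (-0.49, adjusted p = 0.491).

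Between the mutants at P2, 0 of 17137 genes were called in limma and 4.6% had an unadjusted p below 0.05. The log2 change of Sftpd was larger in the Vangl2 than in the Ror2 line by 1.04 (SE 0.23, unadjusted p = 0.000905, adjusted p = 0.946) and that of Sftpa1 by 1.30 (SE 0.41, adjusted p = 0.946). The log2 change of Slc34a2 differed by 0.05 (SE 0.16, adjusted p = 0.992). At P5 limma called 2 of 16886 genes (0.0118%), neither of them among the 10, and 4.73% had an unadjusted p below 0.05. At that threshold the log2 changes of Sftpd (difference 0.98, SE 0.34), Napsa (0.73, SE 0.22), Lamp3 (0.75, SE 0.30) and Abca3 (0.45, SE 0.20) were larger in the Vangl2 line, with adjusted p from 0.768 to 0.998. No count test of these differences was run.

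Ratios within a lung do not depend on how the tables were scaled, and they were chosen after the values of the genes had been seen. A lower Sftpc raises a ratio to it just as a higher value of the other gene does. In every one of the 4 comparisons all mutants had more Sftpd counts per 100 Sftpc counts than all controls. The ratio was 2.25 ± 0.562 (SD, n = 3) in Vangl2 P2 controls and 7.06 ± 2.93 in mutants, and 2.56 ± 0.269 against 4.53 ± 0.772 at Vangl2 P5. It was 2.63 ± 0.214 against 4.09 ± 0.441 at Ror2 P2 and 2.04 ± 0.408 against 3.05 ± 0.647 at Ror2 P5. Each comparison gave p = 0.1 in the exact two-sided permutation test, the smallest value that 3 lungs against 3 can give. The highest ratio, 10.5, belonged to Vangl2 P2 mutant replicate 1, the lung with the fewest Sftpc counts of its table. At Ror2 P2 Sftpc made up 0.829% to 0.907% of all counts in controls and 0.729% to 0.811% in mutants. That share overlapped in the other comparisons, over 2 controls at Ror2 P5. How many other genes would separate the groups per 100 Sftpc counts was not tested.

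Sftpa1 per 100 Sftpc counts was higher in all mutants at Vangl2 P2 (2.68 to 7.01 in controls, 9.22 to 27.9 in mutants), Ror2 P2 (a mean of 9.79 against 16.2) and Ror2 P5 (8.56 against 10.5). It overlapped at Vangl2 P5, from 6.62 to 11.3 against 7.75 to 15.5. Slc34a2 per 100 Sftpc counts was higher in all mutants at the same 3 comparisons and overlapped at Vangl2 P5, where controls ran from 13.8 to 28.7 and mutants from 13.8 to 30.8. At Ror2 P2 it was 17.9 ± 0.856 (SD, n = 3) in controls and 29.3 ± 2.79 in mutants. Abca3 per 100 Sftpc counts was higher in all mutants at Ror2 P2 alone, at 3.19 ± 0.135 (SD, n = 3) against 4.72 ± 0.755. It overlapped at Vangl2 P2 (means of 2.65 and 4.63), at Vangl2 P5, where the mean was lower in mutants (3.89 and 3.34), and at Ror2 P5 (2.35 and 2.47). Sftpc made up 78.5% ± 2.45 (SD, n = 3) of the counts of the 4 surfactant protein genes in Vangl2 P2 controls and 66.6% ± 9.91 in mutants, with no overlap. The share was also lower in all mutants at Ror2 P2, at 69.5% ± 2.02 (SD, n = 3) against 76.0% ± 1.16, and at Ror2 P5, where it rested on 2 controls. It overlapped at Vangl2 P5.

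**Figure D3:**
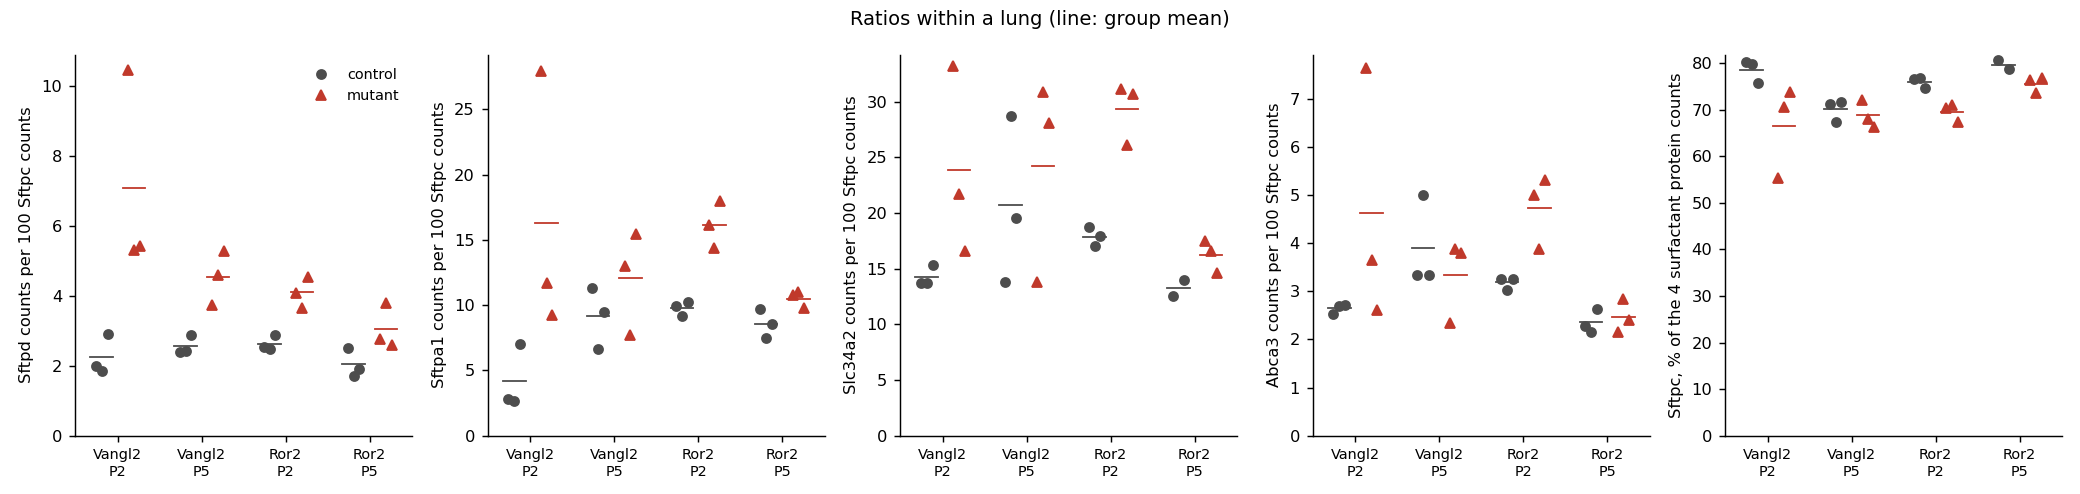
Counts of Sftpd, Sftpa1, Slc34a2 and Abca3 per 100 Sftpc counts and the share of Sftpc in the counts of the 4 surfactant protein genes (vertical axes, from 0) in every lung of the 4 comparisons, with controls as grey circles, mutants as red triangles and a line for each group mean. Sftpd per 100 Sftpc separates mutants from controls in all 4 comparisons, by means of 7.06 against 2.25 at Vangl2 P2 and of 3.05 against 2.04 at Ror2 P5, and Abca3 per 100 Sftpc overlaps in all but Ror2 P2.

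Further genes of the type II cell were read from lists that were chosen with earlier results of these data known. Of 14 other type II markers tested (Cxcl15 and Chil1 were not found under those symbols), 13 had a log2 fold change above 0 at Vangl2 P2 and 1 was called, the mucin Muc1 (log2 fold change 0.82, SE 0.17, adjusted p = 0.041). Of all genes, 1.5% were called higher there. At Vangl2 P5 Dlk1, a membrane protein related to Notch ligands, was called, where 0.563% of all genes were. It stood at 2130.3, 1427 and 1376 normalized counts in controls and at 5529, 6542 and 4316 in mutants (log2 fold change 1.74, SE 0.22, adjusted p = 0.0202). The list's median log2 fold change was 0.44, 0.53, 0.35 and 0.20 at Vangl2 P2, Vangl2 P5, Ror2 P2 and Ror2 P5.

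Surfactant is mostly lipid, and 3 of 24 genes of lipid synthesis and turnover rose at Vangl2 P2, against 1.5% of all genes called higher there. They were Prdx6, whose protein has a phospholipase activity used in surfactant turnover (log2 fold change 1.18, SE 0.25, adjusted p = 0.0458), Cds1, which makes CDP-diacylglycerol (0.84, adjusted p = 0.0337), and Stard10, a phospholipid transfer protein (0.65, adjusted p = 0.0329). The median of the list was 0.17, and none of the 24 was called in the other 3 comparisons, with 8, 10 and 10 of them at an unadjusted p below 0.05 in either direction at Vangl2 P5, Ror2 P2 and Ror2 P5, against 18.8%, 19.3% and 18.5% of all genes. Of 16 genes for lamellar body traffic, proprotein processing and pool control, 4 rose at Vangl2 P2, again against 1.5% of all genes. Ctsh, the cathepsin that takes part in SP-B and SP-C processing, was at 7775, 6968 and 6746 in controls and at 19165, 15958 and 11990.2 in mutants (log2 fold change 1.11, SE 0.17, adjusted p = 0.0301). The lamellar body cholesterol carrier Npc2 (1.08, adjusted p = 0.032), the lysosomal trafficking regulator Lyst (0.57, adjusted p = 0.0312) and the GM-CSF receptor subunit Csf2rb (0.99, adjusted p = 0.0479), which macrophages and neutrophils also express, completed the set.

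Of 12 transcription factors of the type II program, 3 rose at Vangl2 P2 and none fell, where 1.5% of all genes were called higher. They were Klf5 (log2 fold change 1.04, SE 0.21, adjusted p = 0.0408), Tfcp2l1 (0.80, SE 0.12, adjusted p = 0.0289) and Elf5 (0.49, SE 0.10, adjusted p = 0.0418). The median log2 fold change of the 12 was 0.48 there and 0.38, 0.38 and 0.16 at Vangl2 P5, Ror2 P2 and Ror2 P5, with none called. Of 7 FGF target genes, Etv4, the close relative of Etv5, was the 1 called and it fell at Vangl2 P2, where 364 of 17448 genes were called lower. It was at 353.9, 462.8 and 597.7 normalized counts in Vangl2 P2 controls and at 89.9, 161 and 216 in mutants (log2 fold change -1.65, SE 0.33, adjusted p = 0.0408). Its log2 fold change was -0.96, -1.39 and -0.63 in the other 3 comparisons, with adjusted p from 0.132 to 0.374. The list's median was 0.09 at Vangl2 P2 and -0.51 at Vangl2 P5.

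The markers of other cells in the lobe moved in the same comparisons. Of 14 pan-epithelial genes, all 14 had a log2 fold change above 0 at Vangl2 P2 and 6 were called, led by St14 and Krt18, with a median of 0.75. Of all genes, 1.5% were called higher at Vangl2 P2. The summed counts of the pan-epithelial genes ran from 19600 to 22491 in controls and from 30459 to 42806 in mutants. Median log2 fold changes were 0.62 at Vangl2 P5 (Elf3 and Ehf called), 0.32 at Ror2 P2 (none called) and 0.39 at Ror2 P5 (Krt18 called). Over all genes 0.563%, 0% and 0.18% were called in these comparisons. None of 6 club cell markers was called, but their summed counts ran from 147756 to 181425 in Vangl2 P2 controls and from 264636 to 299479 in mutants, and their medians were 0.66, 1.07, 0.17 and 1.24 in the 4 comparisons. Every mutant lay above every control for 5, 5, 0 and 6 of the 6, against 14.6%, 13.2%, 13.4% and 15.6% of all genes. Sftpd is also made by club cells, and the part of these cells in its rise, or in the values of the others of the 10 genes, was not tested. Of 12 alveolar type I markers only Hopx was called (log2 fold change 0.75, adjusted p = 0.0436, Vangl2 P2, where 1.5% of all genes were called higher), but 10 of the 12 log2 fold changes were above 0 at Vangl2 P2 and 11 at Ror2 P2. Their medians were 0.46, 0.13, 0.44 and 0.08 in the 4 comparisons, at Vangl2 P2, Ror2 P2 and Ror2 P5 above those of the 10 surfactant genes. Their summed counts ran from 103505 to 125397 in Vangl2 P2 controls and from 138557 to 172402 in mutants.

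Leukocyte and mesenchymal markers moved as well. Of 8 neutrophil markers 6 rose at Vangl2 P2, with S100a8 (log2 fold change 1.51), Ngp (1.24), Retnlg (1.43) and Ltf (1.61) at the lowest p, and S100a8, S100a9 and Retnlg were called at Vangl2 P5. Over all genes, 1.5% were called higher at Vangl2 P2 and 0.563% in either direction at Vangl2 P5. The summed neutrophil counts were 2988 to 4868 in Vangl2 P2 controls and 9052 to 12057 in mutants, and the list's median log2 fold change was 1.47, 2.02, -0.20 and 0.56 in the 4 comparisons. Of 8 macrophage markers found, C1qa was the 1 called (0.59, Vangl2 P2), but all 8 log2 fold changes were above 0 at Vangl2 P2 and at Vangl2 P5 and 1 was at Ror2 P2. Their medians were 0.65, 0.57, -0.45 and 0.06, and their summed counts ran from 4944 to 5538 in Vangl2 P2 controls and from 6743 to 8784 in mutants, and from 4401 to 5468 against 7551 to 7791 at Vangl2 P5. Among 10 fibroblast and smooth muscle markers Col1a1 (-0.64) and Myh11 (-0.48) fell at Vangl2 P2, where 364 of 17448 genes were called lower. The list's median was -0.37, -0.62, -0.54 and -0.25 in the 4 comparisons. None of 9 endothelial markers was called in any, with medians of -0.01, -0.49, 0.22 and -0.01. No listed marker found in the tables was at 0 in every lung, and the part of these cells in the values of the surfactant genes was not tested.

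**Figure D4:**
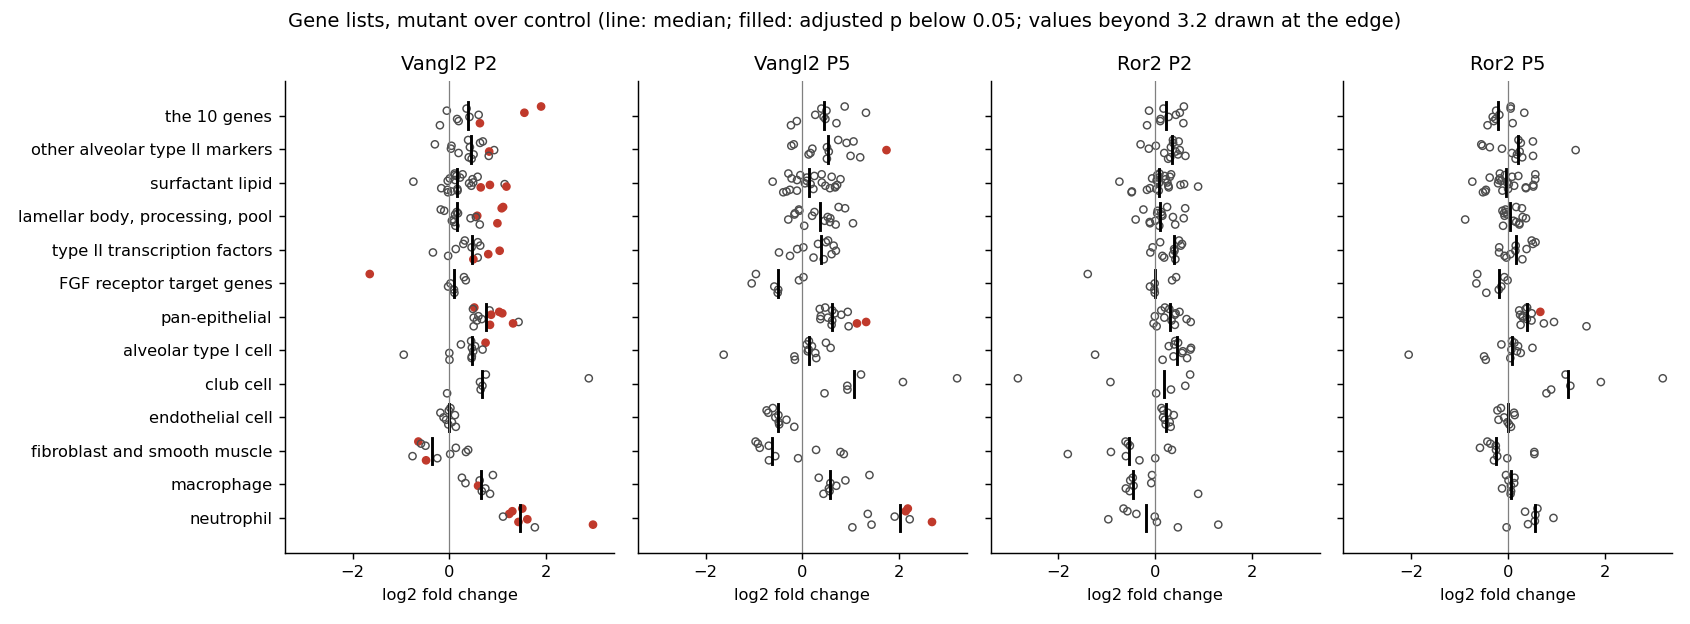
Log2 fold change of mutant over control lungs (horizontal axes) for the genes of each list (rows) in the 4 comparisons, with a line for the median and filled points where the adjusted p in limma was below 0.05. At Vangl2 P2 the medians of the pan-epithelial (0.75) and club cell (0.66) lists lie to the right of the median of the 10 genes (0.38).

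Because the pan-epithelial genes were themselves higher in mutants, the 10 genes were also expressed relative to the mean log2 level of that list in the same lung. This scaling moved the median log2 fold change of all genes to -0.80, -0.70, -0.31 and -0.63 in the 4 comparisons, and called 63.2%, 45.1%, 0.0399% and 61.6% of all genes. At Vangl2 P2, 167 of 17448 genes were called higher and 10868 lower. The numbers were 176 and 7675 of 17410 at Vangl2 P5, and 223 and 10360 of 17177 at Ror2 P5. On this scale Sftpa1 (log2 1.09, adjusted p = 0.00149) and Sftpd (0.75, adjusted p = 0.00625) stayed higher at Vangl2 P2, Slc34a2 lay at -0.17, and Sftpc (-0.86), Napsa (-0.64), Lpcat1 (-0.61) and Etv5 (-0.999) were called lower. At Vangl2 P5 Lpcat1 (-0.81) and Etv5 (-0.93) were called lower. At Ror2 P2 none was called in limma, and Sftpa1 (0.29), Slc34a2 (0.28) and Sftpd (0.21) kept values above 0. At Ror2 P5 Sftpa1, Abca3, Lamp3, Napsa, Lpcat1 and Etv5 were called lower, from -0.56 to -1.04. The order of the 10 genes within a comparison was nearly that of the deposited scaling, since the same amount was taken from every gene of a lung.

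**Figure D5:**
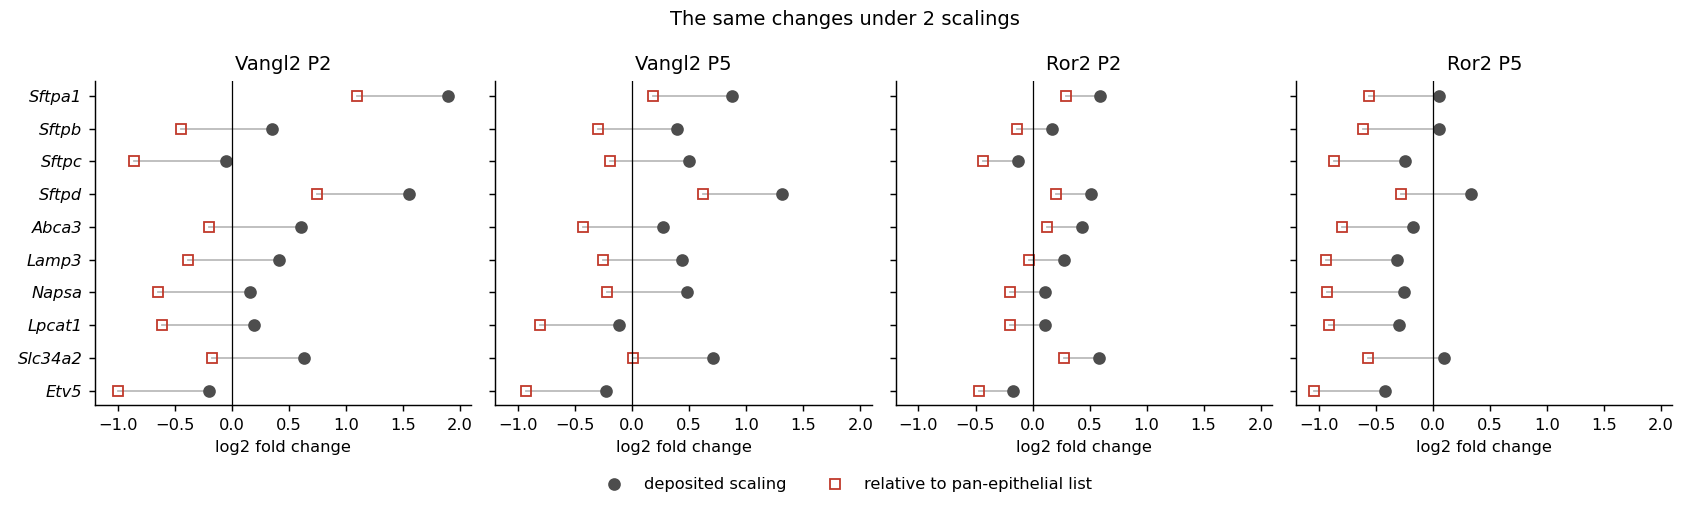
Log2 fold change of mutant over control lungs (horizontal axes) for each of the 10 genes (rows) in the 4 comparisons, as grey circles on the deposited scaling and as red open squares relative to the pan-epithelial list of the same lung. All squares lie left of their circles, and Sftpa1 and Sftpd at Vangl2 P2 remain above 0, at 1.09 and 0.75.

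The genes outside the 10 whose levels followed them most closely were ranked by Pearson's r with their mean standardised log2 level, over the 6 lungs of a table and then averaged over the 4 tables. Controls and mutants are among the same 6 lungs, so a shared difference between the groups raises r, and the values are a description. Of 12657 genes compared, Sdc1, which encodes the epithelial heparan sulfate proteoglycan syndecan-1, led with a mean r of 0.931 and a lowest r of 0.830. Dram1, an autophagy-related lysosomal protein, followed at 0.875, then Pgm2 at 0.858 and Orai1, the store-operated calcium channel, at 0.829. Bcl2a1b (0.799), Ccl9 (0.797), Tmem248 (0.796) and D10Bwg1379e (0.793) completed the 8. Bcl2a1b has near-identical copies, and how reads were shared among them is not known.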

How the data were processed

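Left lung lobes were homogenized in TRIzol, RNA was purified on columns and sequenced on Illumina HiSeq instruments. Per the labels, mm10 and DESeq2 were used. The aligner, counter and versions are not given in the sources used here. The authors deposited 4 tables of 23420 genes holding a normalized count per lung (a signal: gene counts divided by a size factor per lung). Columns of the authors' own comparisons (mean, fold change, statistic, p-values) were not used.

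Within each table, log2(normalized count + 1) was fitted in limma 3.58.1 with a trend (R 4.3.3), over genes with a value of at least 1 in at least 3 lungs. P-values were adjusted by Benjamini-Hochberg over every gene tested (threshold 0.05). Single genes were also given an exact two-sided permutation test (scipy 1.17.1). Whole reads were recovered from the steps of the values in all 24 lungs (100% of values within 0.02 of a whole read, the size factor of 3 of them being close to 1), and edgeR 4.0.16 and DESeq2 1.42.0 were run on these reads as alternatives. In control replicate 1 of Ror2 P5, 8085 genes on chromosomes 5 to 9 and X and 200 genes on Y or with no chromosome found were set to missing. In Vangl2 P5, lungs of the same number deviated from their group means together (r = 0.384, 0.340 and 0.241 over 17410 genes), which pairs them from the data and not from the design. In the other tables not every pair passed 0.1. The fits were also run on simulated data with the same dispersion for every gene and no pairing of lungs. That run cannot vouch for calls of genes with a wider spread or in paired lungs.

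The 10 genes and all lists were chosen with earlier results of these data known. From the other lists, genes with an adjusted p below 0.05 were named, at most 4 per comparison by lowest p, and 8 further genes by likeness (mean normalized count of at least 50 in each table). Alternatives were pseudocounts, filters, TMM and quantile scaling, scaling to pan-epithelial genes, no trend, a replicate block, a Y-linked covariate (not run at Ror2 P5, where control replicate 1 has no Y reads), all 12 lungs of an age, each lung left out, and the values as deposited.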

Additional observations from a re-analysis of the deposited data

How the results depend on the processing

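Groups of 3 lungs limit every count of calls, and the exact permutation test cannot go below 0.1 with 3 lungs against 3, or 0.2 with 2 against 3. At Vangl2 P2, 3 of the 10 genes were called in limma and edgeR, 5 in DESeq2 (Sftpa1, Sftpb, Sftpd, Abca3 and Slc34a2, among 11% of all genes) and 0 in limma without a trend, where 1 gene of all was called. Leaving out 1 lung gave 0 to 4 calls: 0 without control replicate 2 or control replicate 3, Sftpd without control replicate 1 or mutant replicate 2, Sftpd and Slc34a2 without mutant replicate 1, and 4 without mutant replicate 3. Over all genes the calls in these fits ran from 1 without control replicate 2 or 3 to 2333 without mutant replicate 3. The adjusted p over the alternatives ran up to 0.168 for Sftpa1, 0.135 for Sftpd and 0.535 for Slc34a2. At Vangl2 P5 the count was 2 in DESeq2 and 1 in the fit over the 12 lungs of that age. The latter called Sftpd, among 981 of 17410 genes. The count was 0 whichever lung was left out, where 0 to 54 of all genes were called. At Ror2 P2 it was 3 in DESeq2 and 0 to 2 with 1 lung left out, beside 0 to 859 over all genes. At Ror2 P5 it was 0 to 1 with 1 lung left out, beside 0 to 897 over all genes. Over all genes limma and DESeq2 called 626 and 1913 at Vangl2 P2, 98 and 1199 at Vangl2 P5, 0 and 666 at Ror2 P2, and 31 and 797 at Ror2 P5. The cause of these differences was not tested.

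The replicate block called 2 of the 10 genes at Vangl2 P5 (Sftpa1 and Sftpd), where the lungs deviated in pairs, and raised the calls over all genes from 98 to 1558. In the other tables the lungs share only a number: under the block 2 genes were called at Vangl2 P2 (Slc34a2 at adjusted p = 0.0506) and 0 at Ror2 P2 and Ror2 P5. As a hint from the data only, every number at Ror2 P2 correlated more with itself than on average with the others, which was not so at Vangl2 P2 or Ror2 P5. The block put Slc34a2 at Ror2 P5 at -0.035 on the log2 fold change scale.

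Relative to pan-epithelial genes, 6 genes were called at Vangl2 P2 (2 higher, 4 lower), 2 at Vangl2 P5 and 6 at Ror2 P5, all lower, and the median log2 fold changes of the 10 became -0.42, -0.24, -0.080 and -0.83 in the 4 comparisons. Of all genes, 63.2%, 45.1% and 61.6% were called at Vangl2 P2, Vangl2 P5 and Ror2 P5, nearly all of them lower. The log2 fold changes that turned below 0 were those of Sftpb (-0.45), Abca3 (-0.20), Lamp3 (-0.39), Napsa (-0.64), Lpcat1 (-0.61) and Slc34a2 (-0.17) at Vangl2 P2. At Vangl2 P5 they were Sftpb (-0.30), Sftpc (-0.20), Abca3 (-0.43), Lamp3 (-0.26) and Napsa (-0.22). At Ror2 P2 they were Sftpb (-0.13), Lamp3 (-0.027), Napsa (-0.19) and Lpcat1 (-0.20), and at Ror2 P5 Sftpa1 (-0.56), Sftpb (-0.61), Sftpd (-0.28) and Slc34a2 (-0.57). The scaling takes the list's own change from every gene of a lung, so a gene with a smaller change than the list turns. Quantile normalization put Lpcat1 at Vangl2 P5 at 0.018. With the values as deposited, the 0 in control replicate 1 put Sftpb at Ror2 P5 at 4.93 and Napsa at 3.59, neither called in limma, and the median of the 10 there at -0.060.

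With 1 lung left out, the log2 fold change crossed 0 for Sftpc (-0.27 to 0.19) and Napsa (-0.018 to 0.28) at Vangl2 P2, Etv5 at Vangl2 P5 (-0.49 to 0.059), Napsa at Ror2 P2 (-0.025 to 0.34), and Sftpa1 (-0.035 to 0.20) and Slc34a2 (-0.035 to 0.16) at Ror2 P5. None of these was called in limma. The median of the 10 at Ror2 P2 ran from 0.13 to 0.36 and was highest without mutant replicate 1. None of the 10 was called in any of the 4 differences between changes under any alternative run.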
